A study of Mus musculus with 4 samples.

Results

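The Frizzled genes encode the cell-surface receptors for Wnt proteins, and all 10 mouse members, Fzd1 to Fzd10, were taken by gene symbol from a table of 55426 rows. Each member had 1 row. Values are FPKM, fragment numbers scaled by the authors to transcript length and library depth. All 10 members reached the minimum mean of 1 FPKM over the 4 libraries, so all entered the test, which covered 13931 genes in all. The libraries are poly(A) RNA sequencing of mouse organoids at day 6 of retinal differentiation. All come from 1 line labelled Rx:GFP Mettl3 KO, which carries a Dox-inducible HA-METTL3. METTL3 is the enzyme that writes N6-methyladenosine on RNA, and Dox (doxycycline) is the drug that switches on such inducible genes. The untreated group has 2 libraries without Dox, and the Dox group has 2 libraries given 2 µg/ml Dox for 6 days. Every culture was grown in GMEM with sodium pyruvate (1%), NEAA (1%), KSR (5%), β-ME (1%) and AGN at 0.1 µM. The line is the only one in the series, so by label both groups are Mettl3 knockouts. The Dox group differs by the drug and any copy it induces. Library titles carry the prefix EV, which the labels do not explain. Nothing says whether the duplicates came from separate cultures, so the p-values measure the spread between these libraries, which may be technical.

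A Frizzled receptor binds a Wnt through a cysteine-rich domain outside the cell and passes the signal to Dishevelled inside it. With the co-receptors LRP5 and LRP6 this stabilises beta-catenin, which drives target genes together with TCF and LEF factors. Other Frizzled signals orient cells within the plane of an epithelium. In the anterior neural plate, low Wnt/beta-catenin activity is a known condition for forming the eye field, while Wnts of the dorsal midline and midbrain favour more posterior or dorsal brain. By sequence the family is usually divided into Fzd1, Fzd2 and Fzd7, then Fzd5 and Fzd8, then Fzd4, Fzd9 and Fzd10, then Fzd3 and Fzd6.

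A feature common to the whole family is a short motif just inside the membrane, KTXXXW (lysine, threonine, any 3 residues, tryptophan), which is known as a contact for Dishevelled. A search of the translated coding sequence of each gene's longest GENCODE M21 transcript found it exactly 1 time in every member. The codons are shown for the members whose sequence is printed here, because they show what these members keep and what they vary. They are read 5′ to 3′ on the coding strand in GRCm38, and capitals mark the codons of the lysine, the threonine and the tryptophan.
Fzd1, chr5:4755706-4755723, minus strand: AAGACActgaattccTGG
Fzd2, chr11:102606373-102606390, plus strand: AAGACActgcactcgTGG
Fzd7, chr1:59484607-59484624, plus strand: AAGACCctgcagtcaTGG
Fzd5, chr1:64735011-64735028, minus strand: AAGACTctggagtctTGG
Fzd4, chr7:89408241-89408258, plus strand: AAAACTcttcacacgTGG
Fzd9, chr5:135249416-135249433, minus strand: AAGACTtttcagactTGG
Fzd10, chr5:128602796-128602813, plus strand: AAGACCctgcagtccTGG
Fzd3, chr14:65212107-65212124, minus strand: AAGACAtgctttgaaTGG
Fzd6, chr15:39033949-39033966, plus strand: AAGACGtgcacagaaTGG

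Of these 9 members, 8 use AAG for the lysine and Fzd4 uses AAA. The middle 3 codons begin with ctg in Fzd1, Fzd2, Fzd7, Fzd5 and Fzd10, and with tgc in the pair Fzd3 and Fzd6. Fzd4 has ctt there, which encodes leucine as ctg does, and Fzd9 has ttt. The motif begins near the end of the coding sequence in Fzd1 (codon 620 of 642), Fzd2 (548 of 570) and Fzd7 (550 of 572). It is followed by a longer tail in Fzd3 (502 of 666) and Fzd6 (498 of 709).

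The libraries held 31700000 to 34900000 fragments by a fit to the 1-fragment steps of low values, and Pearson's r across tested genes was 0.990 within the untreated group, 0.987 within the Dox group and 0.960 to 0.966 between groups. Mettl3, the targeted gene, was at 40.33 and 37.98 FPKM untreated and at 45.2 and 46.37 FPKM with Dox. It did not pass the test (log2 fold change 0.22, adjusted p = 0.122 in limma), and its exons overlap those of Tox4 on the other strand. Reads of the disrupted gene and of any induced copy cannot be told apart in this row, so it does not show whether the copy was induced. Of the retinal progenitor markers, Rax was at 1.12 and 0.82 FPKM untreated and at 201.14 and 227.98 FPKM with Dox. Six6 was at 0.01 FPKM in both untreated libraries, so this defining marker was all but absent there. Rax and Six6 come from a list of 10 markers that summed to 421 to 446 FPKM untreated, so others on it were expressed there. Of the 10, 8 passed the test as higher with Dox and 1 as lower, against 4.44% and 4.87% of all tested genes. A mean below 1 FPKM in 1 group was found for 5 of the 10, so these counts are descriptions. Exons of Rax and Six6 also overlap those of another gene on the other strand.

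The 10 Frizzled genes moved in both directions with Dox. A gene is called here when its adjusted p is below 0.05 in limma, on log2(FPKM + 1), adjusted over all tested genes. By that rule 8 of the 10 members were called, against 9.31% of all 13931 tested genes. Fzd5, Fzd8 and Fzd1 were higher (3 of 10, against 4.44% of tested genes called higher). Fzd10, Fzd9, Fzd4, Fzd2 and Fzd3 were lower (5 of 10, against 4.87% called lower). Fzd6 and Fzd7 were not called. Untreated and Dox libraries did not overlap in 9 of the 10 members, against 53.4% of tested genes. The median absolute log2 fold change was 1.07 over the members and 0.13 over all tested genes. Signed medians were -0.35 and -0.0042. Of the members, 6 had an absolute log2 fold change of 1 or more, as did 4.09% of all tested genes. In whole organoids, fewer cells of a type and less RNA per cell cannot be told apart. With 2 libraries a group, the smallest two-sided exact permutation p for any single gene is 0.333.

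**Figure D1:**
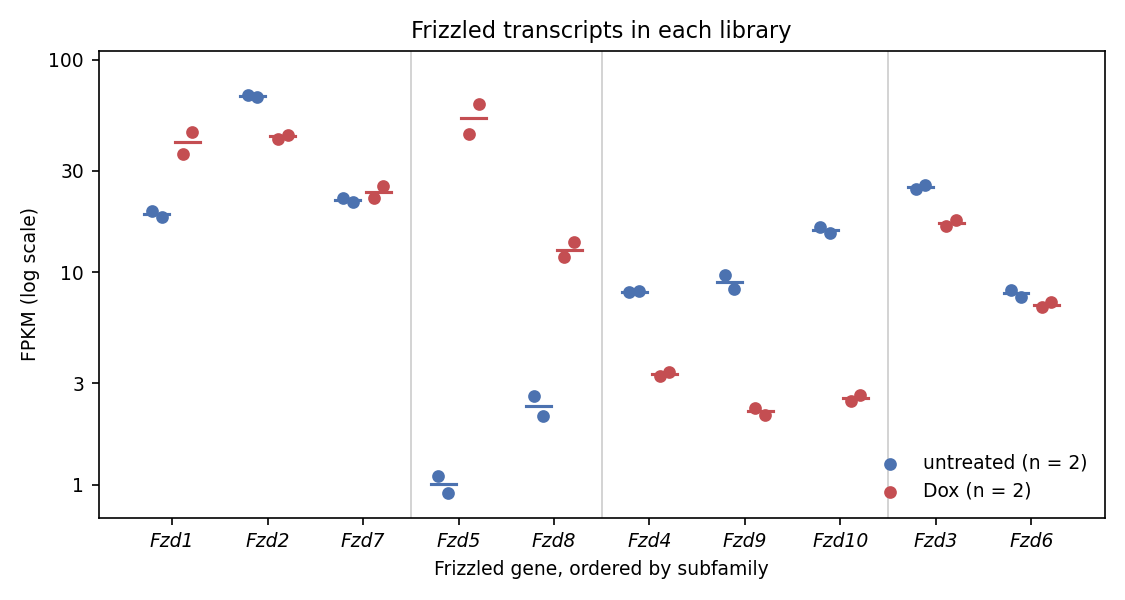
FPKM of each Frizzled gene in each of the 4 libraries on a log scale, with points for libraries, short lines for group means and vertical lines between subfamilies. Fzd5 goes from the lowest position untreated (1.1 and 0.92) to the highest with Dox (44.55 and 61.52), while Fzd4, Fzd9 and Fzd10 all sit lower with Dox.

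The members that rose were led by Fzd5, a receptor of the optic vesicle that is known to be needed for normal eye development in the mouse. Without Dox, Fzd5 stood at 1.1 and 0.92 FPKM, and with Dox at 44.55 and 61.52 FPKM. Both Dox libraries were far above both untreated ones, and Dox replicate 2 was the higher of the pair. Group means were 1.01 ± 0.127 and 53.0 ± 12.0 FPKM (SD, n = 2 each), a ratio of 52.5. On the log2(FPKM + 1) scale the difference was 4.73 (SE 0.166, 95% interval 4.32 to 5.15, adjusted p = 1.16e-04 in limma). It ranked 10th from the top among the tested genes. The untreated values rest on about 238 and 214 fragments, so Fzd5 was low but detected without Dox. Fzd8, the nearest relative of Fzd5, is known from the anterior forebrain. Its libraries were at 2.61 and 2.11 FPKM untreated and at 11.76 and 13.81 FPKM with Dox, with no overlap. Its ratio of means was 5.42 and its log2 fold change 2.04 (SE 0.131, adjusted p = 7.27e-04 in limma). The ratio of Fzd5 to Fzd8 was 0.421 and 0.436 in the untreated libraries and 3.79 and 4.45 with Dox, so the order within this pair turned over.

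Fzd1, a widely expressed receptor of the beta-catenin pathway, was the third member that rose. It was at 19.4 and 18.28 FPKM untreated and at 35.87 and 45.7 FPKM with Dox. The libraries of the groups were apart, and the Dox pair was the more spread. Its ratio of means was 2.16 and its log2 fold change 1.07 (SE 0.124, adjusted p = 0.00582 in limma). With no filter on low values, which tests 27532 genes, its adjusted p was 0.0652.

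The bases upstream of Fzd5, the member with the largest rise, are shown because the family's promoters differ in the motif they hold most of. They come from RefSeq (GRCm38.p6) and run from 250 bases before the annotated start to the start base, 5′ to 3′ on the gene's strand. Capitals mark every match, on either strand, to 5 motifs that were searched: GGGCGG (the GC box), CAGCTG (an E-box), ATCAAAG (the core bound by TCF and LEF factors), TAATTA (a homeodomain core pair) and TAATCC (the core bound by OTX factors).
Fzd5, chr1:64737750-64738000, minus strand: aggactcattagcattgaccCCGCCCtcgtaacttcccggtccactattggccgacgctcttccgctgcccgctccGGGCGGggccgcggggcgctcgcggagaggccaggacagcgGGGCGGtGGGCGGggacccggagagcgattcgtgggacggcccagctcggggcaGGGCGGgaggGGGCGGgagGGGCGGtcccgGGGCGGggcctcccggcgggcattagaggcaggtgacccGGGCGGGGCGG

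The full RefSeq window, which goes on to 50 bases after the start, held 10 matches to GGGCGG in Fzd5, of which the last pair overlap by 1 base, and none to the other 4 motifs. The Fzd10 window held 1 match to GGGCGG and 1 to CAGCTG, which 16.3% of windows hold. RefSeq windows were found for 6 of the 10 members, Fzd1, Fzd4, Fzd5, Fzd7, Fzd9 and Fzd10. GGGCGG was present in 5 of the 6, with 8 matches in Fzd4, 7 in Fzd7 and 1 in Fzd9, against 35.7% of 32851 promoter windows of this length. Fzd1 held none and was the only one with TAATCC, which 7.06% of windows hold. ATCAAAG was in none of the 6 and in 3.73% of windows, and TAATTA in none and in 5.29%. G and C made up 54.0% of the Fzd1 window and 66.7% to 78.0% of the other 5, against a median of 52.7% over all windows. Such matches describe the letters in these windows and nothing more. GENCODE M21 places the starts of Fzd9 and Fzd10 upstream of the RefSeq start and those of Fzd1 and Fzd7 downstream of it, so the windows of these 4 depend on the annotation.

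Fzd10 is known from the dorsal neural tube. It was at 16.33 and 15.22 FPKM untreated and at 2.47 and 2.64 FPKM with Dox. The groups were well apart, with little spread within either. Means were 15.8 ± 0.785 and 2.56 ± 0.120 FPKM (SD, n = 2 each), so the untreated mean was 6.17 times the Dox mean. The log2 fold change was -2.24 (SE 0.0975, 95% interval -2.48 to -1.99, adjusted p = 1.91e-04 in limma), 64th from the bottom of the tested genes. A separate row, Fzd10os, named for the opposite strand of Fzd10, was at 10.16 and 12.7 FPKM untreated and at 2.89 and 1.54 FPKM with Dox. It was called lower too (log2 fold change -1.98, adjusted p = 0.00553 in limma). No exon of Fzd10 overlaps one of Fzd10os in GENCODE M21.

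Fzd9, a receptor best known from the developing hippocampus, was at 9.74 and 8.3 FPKM untreated and at 2.31 and 2.13 FPKM with Dox. No Dox library reached the lower untreated one. The untreated mean was 4.06 times the Dox mean, and the log2 fold change was -1.63 (SE 0.119, adjusted p = 0.00107 in limma). About 150 and 143 fragments lie behind the Dox values, the smallest numbers in the family. Fzd4, which besides Wnts binds Norrin and is known for its part in retinal blood vessels, was at 8.06 and 8.12 FPKM untreated and at 3.26 and 3.38 FPKM with Dox. The pairs were tight and apart, with an untreated mean 2.44 times the Dox mean. Its log2 fold change was -1.07 (SE 0.0969, adjusted p = 0.00235 in limma). All 3 members of this subfamily were therefore called lower.

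The other members that fell did so by less. Fzd2, a broadly expressed receptor, was the most abundant member without Dox. Its libraries were at 68.11 and 66.84 FPKM untreated and at 42.52 and 44.42 FPKM with Dox. The groups were apart by far more than the spread within them, and the log2 fold change was -0.62 (SE 0.0642, adjusted p = 0.00368 in limma). Fzd3, a planar polarity receptor known for guiding axon growth, was at 24.72 and 25.76 FPKM untreated and at 16.58 and 17.55 FPKM with Dox. These groups were apart as well, and the difference was -0.54 on the log2 scale (SE 0.0752, adjusted p = 0.0112 in limma). The call of Fzd3 needed all 4 libraries. Its adjusted p was 0.0771 without untreated replicate 1, 0.102 without untreated replicate 2, 0.0757 without Dox replicate 1 and 0.0623 without Dox replicate 2.

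Of the remaining pair, Fzd6, the planar polarity relative of Fzd3 known for hair patterning, was at 8.25 and 7.65 FPKM untreated and at 6.84 and 7.21 FPKM with Dox. The libraries did not overlap, yet the difference was small (log2 fold change -0.16, 95% interval -0.40 to 0.08, adjusted p = 0.390 in limma). Fzd7, a receptor of stem and progenitor cells, was at 22.34 and 21.36 FPKM untreated and at 22.27 and 25.5 FPKM with Dox. Its groups overlapped, with a log2 fold change of 0.12 (95% interval -0.11 to 0.35, adjusted p = 0.488 in limma). The intervals leave room for a change of either sign in both genes.

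**Figure D2:**
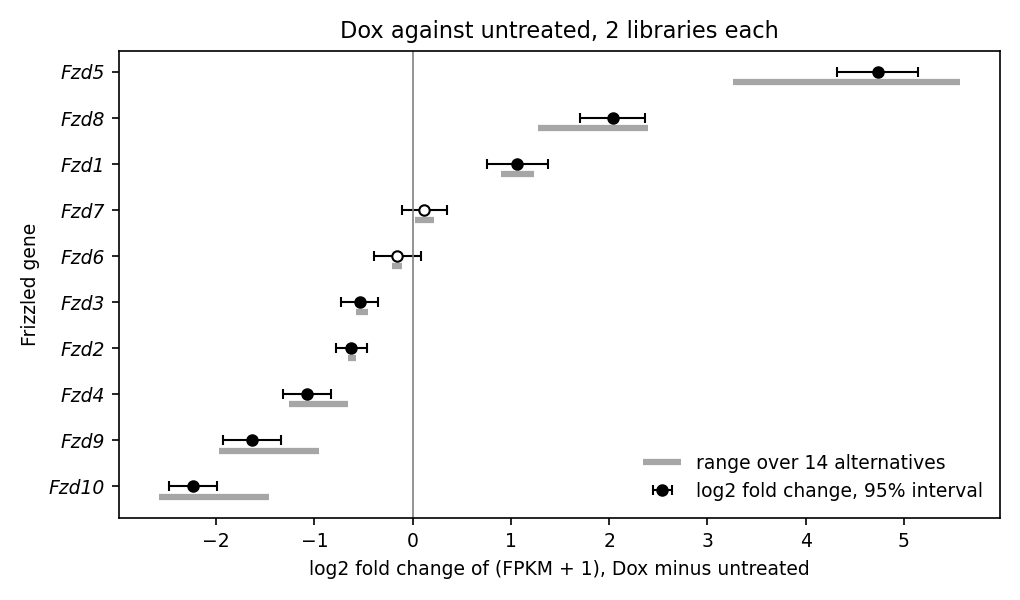
Log2 fold change of FPKM + 1 (x axis) for each Frizzled gene (y axis), with 95% intervals from limma, filled points for called genes and grey bars for the range over 14 alternative settings. The values run from -2.24 for Fzd10 to 4.73 for Fzd5, and no grey bar crosses 0.

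FPKM is scaled to transcript length, so levels are set side by side between genes here, as a description. Whether other traits of a transcript affect its FPKM was not tested. Without Dox the order by mean FPKM was Fzd2 (67.5), Fzd3 (25.2), Fzd7 (21.9), Fzd1 (18.8), Fzd10 (15.8), Fzd9 (9.02), Fzd4 (8.09), Fzd6 (7.95), Fzd8 (2.36) and Fzd5 (1.01). Of neighbours in that order, the libraries of Fzd4 and Fzd6 overlapped and the rest were apart. With Dox it was Fzd5 (53.0), Fzd2 (43.5), Fzd1 (40.8), Fzd7 (23.9), Fzd3 (17.1), Fzd8 (12.8), Fzd6 (7.03), Fzd4 (3.32), Fzd10 (2.56) and Fzd9 (2.22). There the libraries of Fzd2 and Fzd1 overlapped. Fzd5 and Fzd2 were only just apart, at 44.55 FPKM for the lower Fzd5 library and 44.42 FPKM for the higher Fzd2 library. Those are different libraries, and inside Dox replicates 1 and 2 the ratio of Fzd5 to Fzd2 was 1.05 and 1.38. Within each library the ratio of Fzd2 to Fzd1 was 3.51 and 3.66 untreated and 1.19 and 0.972 with Dox.

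Summed over the 10 genes, Frizzled FPKM was 180.66 and 174.56 untreated and 188.43 and 223.86 with Dox. The Dox libraries were higher, by a mean of 28.5 FPKM, which is close to the spread between them (SD 25.1 FPKM). This difference was 46.3 FPKM without Dox replicate 1 and 10.8 FPKM without Dox replicate 2, so its size rests on single libraries. The make-up shifted more than the sum. Fzd5 went from 0.609% and 0.527% of the family sum to 23.6% and 27.5%. Fzd5 and Fzd8 together went from a mean of 1.89% to 31.8%. Fzd4, Fzd9 and Fzd10 went from 18.5% to 3.95%, and Fzd3 and Fzd6 from 18.7% to 11.7%. The Fzd1, Fzd2 and Fzd7 subfamily summed to 109.85 and 106.48 FPKM untreated and to 100.66 and 115.62 FPKM with Dox. Its group means were thus nearly equal, at 108.2 and 108.1 FPKM, although Fzd1 rose and Fzd2 fell within it.

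**Figure D3:**
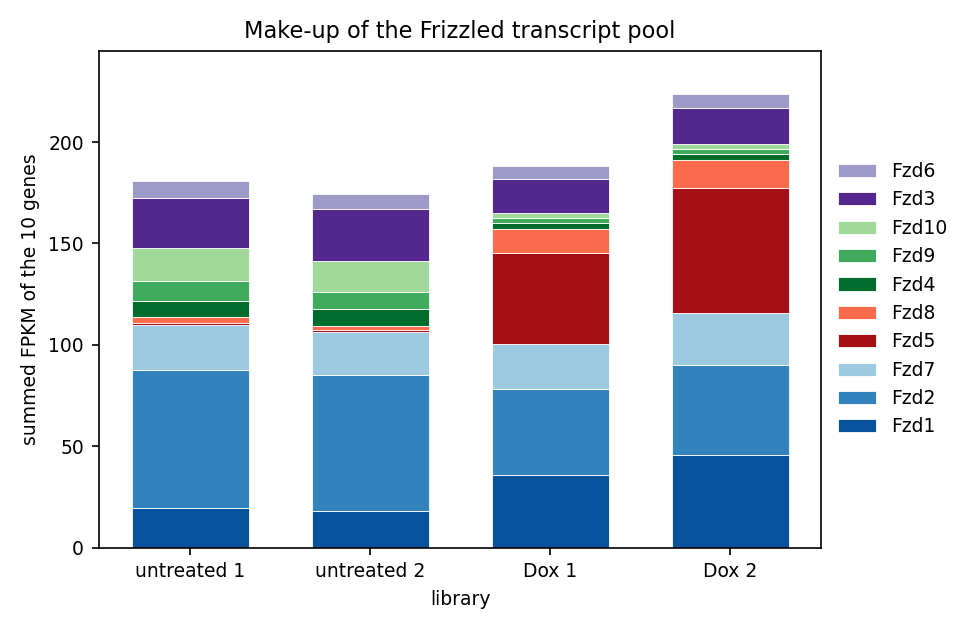
Stacked FPKM of the 10 Frizzled genes in each library, coloured by subfamily (blue for Fzd1, Fzd2 and Fzd7, red for Fzd5 and Fzd8, green for Fzd4, Fzd9 and Fzd10, purple for Fzd3 and Fzd6). The red share grows from a mean of 1.89% to 31.8% and the green share shrinks from 18.5% to 3.95%, while the summed height goes from 174.56 and 180.66 to 188.43 and 223.86.

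Most Frizzled genes are compact. In GENCODE M21 the longest transcripts of Fzd1, Fzd2, Fzd7, Fzd8, Fzd9 and Fzd10 have 1 exon, those of Fzd4 and Fzd5 have 2, and those of Fzd3 and Fzd6 have 7. Fzd5 (ENSMUSG00000045005) lies on the minus strand at chr1:64730558-64737751 in GRCm38, with a coding sequence of 1755 bases in a transcript of 6915. Fzd7 lies on the same chromosome at chr1:59482424-59486955. Fzd1 (chr5:4753839-4758035), Fzd10 (chr5:128600844-128604093) and Fzd9 (chr5:135248938-135251230) share a chromosome without being neighbours. Fzd4 is at chr7:89404355-89413134, Fzd2 at chr11:102604396-102608058, Fzd3 at chr14:65192449-65262463, Fzd6 at chr15:39006034-39038188 and Fzd8 at chr18:9212163-9218136.

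Reads shared between relatives could blur such a family. No stretch of 50 bases in any member's transcripts occurred in another Frizzled gene. Of the 50-base stretches of Fzd5, 16.4% occur in Gm38058, a gene on the opposite strand whose exons cover 1233 bases of Fzd5 exon. Gm38058 itself was listed at 0.01 and 0 FPKM untreated and at 0.22 and 0.39 FPKM with Dox, far below Fzd5 in each library. Fzd6 overlaps Gm26704 by 152 bases on the opposite strand, and that gene was at 0.06 FPKM or less in every library. In GENCODE M21 the other 8 members overlap no exon of another gene.

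The study concerns an enzyme that methylates RNA, so the letters GGACT, a common form of the motif it acts on, were counted on the sense strand of each member's longest transcript. There were 10 in Fzd8, 8 in Fzd5, 7 in Fzd3, 6 each in Fzd10 and Fzd4, 3 each in Fzd1, Fzd6 and Fzd9, 2 in Fzd2 and 1 in Fzd7. Per kilobase this ran from 0.221 in Fzd7 to 1.85 in Fzd10, around a median of 0.998 over 13918 tested genes with a transcript in the annotation. Called members lay on both sides of that median, with Fzd10, Fzd8, Fzd9 and Fzd5 above it and Fzd4, Fzd1, Fzd3 and Fzd2 below. The members that were not called, Fzd6 (0.694) and Fzd7 (0.221), both lay below it. No methylation was measured in these libraries.

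The rest of the Wnt pathway was described from 7 lists that hold 99 different genes. Of these, 69 were tested, and 9 were called higher and 16 lower, which is 36.2% of those tested against 9.31% of all genes. Of the 69, 7 had a mean below 1 FPKM in 1 group and so passed the filter through the other. All 7 tested ligands of 19 listed were called. Of these, 6 were lower, led by Wnt8b (log2 fold change -3.92), Wnt7b (-3.59) and Wnt1 (-2.35), of which Wnt8b marks the dorsal forebrain midline and Wnt1 the midbrain. Wnt5b, often linked to signalling without beta-catenin, was the only ligand called higher, from 16.59 and 14.81 to 30.28 and 34.06 FPKM (log2 fold change 0.99, adjusted p = 0.0030 in limma). The median over the tested ligands was -1.59.

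Among the partners that sit beside Frizzled at the membrane, 2 genes were called. Of 12 tested co-receptors and partners, Smo among them, limma called 2 higher and 0 lower, which is 16.7% against 9.31% of all tested genes. At an unadjusted p below 0.05 in limma, the numbers were 4 and 0. The share of all tested genes at that unadjusted threshold was not counted, here or for the later lists. Groups did not overlap in 8 of the 12, against 53.4% of all tested genes. Reck, a Wnt7 co-factor, had a log2 fold change of 1.06 and Gpc4, a glypican, of 0.68. Both calls were lost without Dox replicate 2, at adjusted p = 0.0536 for Reck and 0.0552 for Gpc4 in limma. The Reck call was also lost with no filter (0.0553). The co-receptors Lrp5 (log2 fold change 0.24, adjusted p = 0.276) and Lrp6 (0.19, 0.302) were not called, nor was Tspan12, a partner of Fzd4 (0.36, 0.0752). Ndp, which encodes Norrin, the ligand of Fzd4, stayed at 0.33 to 0.42 FPKM and was below the filter. Smo, the other receptor of the same class and the transducer of Hedgehog signals, was at 84.86 and 72.86 FPKM untreated and at 74.76 and 85.18 FPKM with Dox, with overlapping groups (adjusted p = 0.927).

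Genes that set how long Frizzled stays at the surface moved strongly and in both directions. Of 7 tested turnover genes, 2 were called higher and 3 lower, which is 71.4% against 9.31% of all tested genes. The R-spondins, which keep Frizzled at the membrane by removing the ligases ZNRF3 and RNF43, were among the lower ones, with log2 fold changes of -3.62 for Rspo2 and -3.32 for Rspo3. Shisa2, which holds Frizzled and FGF receptors back in the endoplasmic reticulum, rose from 7.06 and 5.79 to 191.62 and 227.17 FPKM (log2 fold change 4.82, adjusted p = 6.96e-05 in limma). Lgr4, an R-spondin receptor, had a log2 fold change of 1.83, while Znrf3 was not called (-0.15, adjusted p = 0.567). Of 7 tested secreted and surface inhibitors, 2 were called in each direction, which is 57.1% against the same 9.31%. Dkk3 (2.96) and Sfrp2 (1.61), the latter a decoy with a Frizzled-like cysteine-rich domain, were higher, and Apcdd1 (-1.56) was lower.

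For the relay inside the cell, the share called was near that of all genes. Of 19 tested Dishevelled and beta-catenin relay genes, limma called 2 higher and 0 lower, which is 10.5% against 9.31% of all tested genes. At an unadjusted p below 0.05 in limma, the numbers were 4 and 4. Throughout, 9.31% is the share after adjustment, and no all-gene share was counted for the unadjusted numbers. The 2 called genes were Tcf7l1, a repressor type of TCF factor (log2 fold change 1.30), and Ctnnbip1, an inhibitor that binds beta-catenin (0.87). Without Dox replicate 2 their adjusted p-values were 0.0567 and 0.0540 in limma, Ctnnbip1 had 0.0512 without Dox replicate 1, and Tcf7l1 had 0.0661 with no filter. The Dishevelled genes themselves were not called, with log2 fold changes of -0.27 for Dvl1, 0.25 for Dvl2 and 0.16 for Dvl3. Of 9 tested feedback targets of beta-catenin, limma called 4 lower and 0 higher (5 and 1 unadjusted), which is 44.4% against 9.31%. Sp5 (-2.29), Axin2 (-2.28) and Apcdd1 (-1.56) had the lowest log2 fold changes. Of 11 tested planar polarity genes, limma called 2 lower and 0 higher (3 and 0 unadjusted), which is 18.2% against 9.31%. These were Celsr3 (-0.71) and Vangl2 (-0.70). The Celsr3 call was lost when any 1 library was left out (adjusted p = 0.0814 to 0.152) and with no filter (0.123). The Vangl2 call was lost without untreated replicate 1 (0.0972), Dox replicate 1 (0.0996) or Dox replicate 2 (0.0614), and with no filter (0.0998). Exons of Wnt7b, Rspo3, Sfrp2, Tcf7l1, Ctnnbip1, Axin2, Celsr3, Dvl1, Dvl2, Tspan12 and Lef1 overlap another gene. Some of their reads may therefore belong to it.

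**Figure D4:**
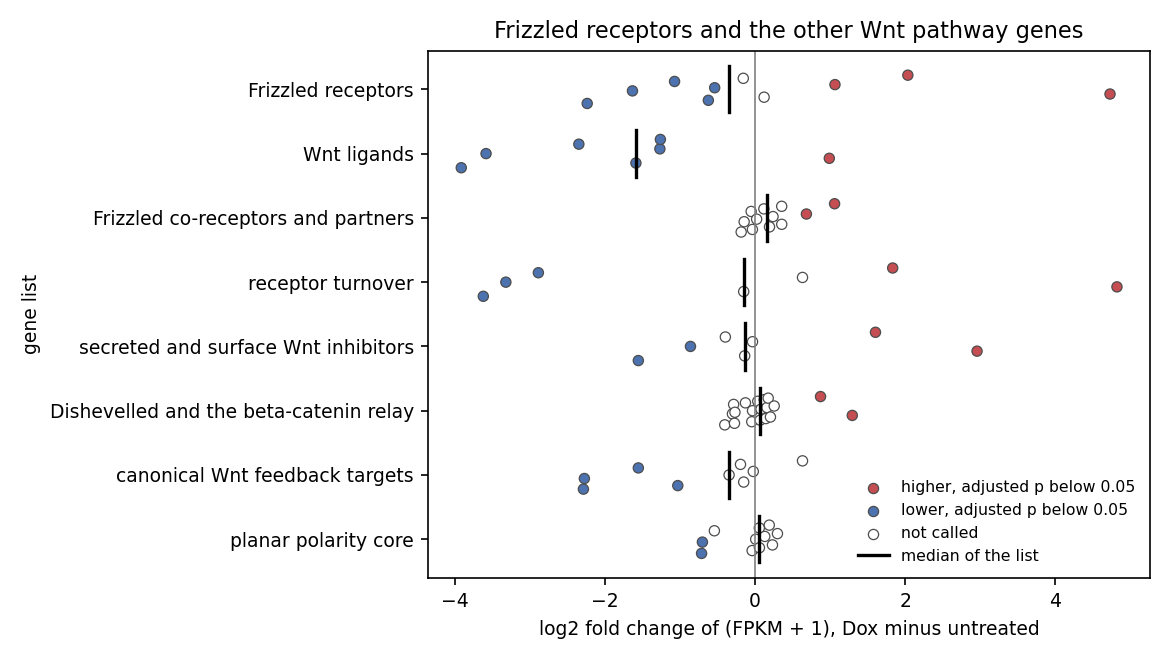
Log2 fold change of FPKM + 1 (x axis) for every tested gene of the Frizzled family and of 7 Wnt pathway lists (y axis), coloured by call, with a black line at each list's median. Called Frizzled genes lie on both sides of 0, Wnt ligands mostly below it, and most of the Dishevelled and beta-catenin relay near it.

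To place each called member beside the pathway, the 69 tested Wnt genes were ranked by Euclidean distance over the 4 libraries' log2(FPKM + 1) values, after subtracting each gene's mean. Fzd5 was nearest to Shisa2 (distance 0.195), with the next gene, Dkk3, much further off (1.78). Fzd8 was nearest to Lgr4 (0.237) and then Sfrp2 (0.437). Fzd1 was nearest to Reck (0.119) and Wnt5b (0.154). Among the members that fell, Fzd10 was nearest to Sp5 (0.0801) and Wnt1 (0.137), Fzd9 to Apcdd1 (0.115) and Wnt7a (0.175), and Fzd4 to Lef1 (0.151) and Wnt9a (0.206). Fzd2 was nearest to Celsr3 (0.165) and Vangl2 (0.181), and Fzd3 to Frzb (0.168) and Celsr3 (0.201). With 4 libraries in 2 groups this likeness mostly restates the size and sign of each fold change.

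Markers of several cell types moved along with the Frizzled genes, and their part in the Frizzled result was not tested. Some of these markers had a mean below 1 FPKM in 1 group and passed the filter only through the group where they were high, so the counts that follow are descriptions. Of the tested genes, that held for 5 of 10 retinal progenitor, 2 of 3 pigment epithelium, 2 of 10 dorsal forebrain midline, 3 of 7 neuron, 3 of 8 neural crest, 4 of 6 diencephalon, midbrain and hindbrain, and 1 of 7 pluripotent cell markers, and for Kdr. Over all tested genes, 4.44% were called higher and 4.87% lower. Retinal progenitor markers were called higher in 8 of 10 tested genes and lower in 1. Their summed FPKM was 421.2 to 446.3 untreated and 1168 to 1343 with Dox. Pigment epithelium markers were higher in 3 of 3 tested genes (2.46 to 2.79 untreated, 62.3 FPKM in both Dox libraries). Dorsal forebrain midline markers were lower in 8 of 10 tested genes and higher in 1 (368.0 to 373.6 untreated, 58.1 to 59.6 with Dox). That list shares Wnt3a, Wnt8b, Rspo2 and Rspo3 with the Wnt lists. Markers on the neuron list, which includes Neurog2 and Dll1, were lower in 7 of 7 tested genes (174.2 to 179.0 untreated, 89.4 to 93.7 with Dox). Neural crest markers were lower in 5 of 8 tested genes, and limma called 0 of them higher against 2 unadjusted (42.9 to 44.2 untreated, 15.8 to 17.5 with Dox). Among diencephalon, midbrain and hindbrain markers 4 of 6 tested were lower and 1, Pax2, was higher (27.5 to 33.1 untreated, 32.8 to 43.5 with Dox), and Hoxb1 was at 0 in every library.

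Other cell types gave less. Of 4 tested surface ectoderm markers limma called 0, and 1 had an unadjusted p below 0.05 (50.5 to 55.5 untreated, 51.8 to 59.1 FPKM with Dox), with Krt14 at 0 throughout. Pluripotent cell markers were lower in 1 of 7, Klf4 (68.6 to 72.03 untreated, 51.4 to 75.2 with Dox). No mesoderm and endoderm marker passed the filter (1.54 to 1.81 untreated, 2.13 to 2.68 with Dox, over 8 genes). The endothelium and blood list had 1 tested gene, Kdr, which was higher (0.99 to 1.03 untreated, 15.1 to 19.5 with Dox for the list). Kdr made up most of that sum with Dox, while Pecam1, Cdh5 and Tie1 were between 0.01 and 0.89 FPKM in every library.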

How the data were processed

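Poly(A) RNA of 4 libraries was sequenced, with 2 untreated and 2 Dox libraries grouped by their sample titles, which the treatment labels match. The authors deposited FPKM values, 1 column per library. Per the submitters' processing notes the tools were STAR and Cuffdiff and the build mm10; versions and strand setting are not given in the sources used here. The table holds no counts. Depth was fitted from the 1-fragment steps of low values in single-transcript genes, after a check on simulated data, and fragments behind a value use the longest transcript.

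Values were transformed to log2(FPKM + 1), which understates the change of low genes. Genes averaging 1 FPKM or more (13931) entered limma 3.58.1 (R 4.3.3; lmFit, eBayes with trend, no covariate, all 4 libraries, two-sided, Benjamini-Hochberg over all tested genes, threshold 0.05). The prior had 3.50 degrees of freedom. The pipeline was tested on simulated data with 200 changed genes. It recovered 81.7% of 2-fold and 96.3% of 4-fold changes, and 8.21% of its calls were unchanged genes, above the 0.05 threshold. The simulated spread was drawn from the prior that limma fitted, and in the data 1297 genes were called. These rates may therefore not hold for these libraries. Members and lists were chosen with earlier results of these data known, so counts within lists are descriptions. Named are all members, Mettl3, Smo, up to 3 called genes per Wnt list with the largest change and groups apart, and the 2 Wnt genes nearest each called member. Further genes (Wnt5b, Lgr4, Lrp5, Lrp6, Tspan12, Ndp, Znrf3, the Dvl genes, single markers, and rows that overlap a member) were named after their values were seen. Alternatives were pseudocounts of 0.1 and 5, no filter or a minimum mean of 5 FPKM, TPM rescaling, median centring, quantile normalization, eBayes without trend or robust, the replicate block, and each library left out. Positions and transcripts are from GENCODE M21 (GRCm38, the same assembly as mm10), and promoters from RefSeq. Python 3.11.15 was used for the rest.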

Additional observations from a re-analysis of the deposited data

How the results depend on the processing

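The number of Frizzled genes called was 7 or 8 in all 14 alternatives. It was 7 with no filter, where Fzd1 was lost, and 7 without any 1 library, where Fzd3 was lost. No member changed sign. Fold changes on the log2(FPKM + 1) scale depend on the pseudocount by construction: that of Fzd5 was 5.57 with a pseudocount of 0.1 and 3.26 with 5, and those of Fzd8, Fzd4, Fzd9 and Fzd10 with 5 were 1.27, -0.65, -0.96 and -1.46. Leaving out each library gave -2.29 to -2.19 for Fzd10. Over all tested genes 1297 were called, against 745 with no filter, 821 with a minimum mean of 5 FPKM (fewer genes tested) and 593 to 697 without 1 library (fewer samples; the lone library is assumed to vary like the other group). Called Wnt pathway genes numbered 25, and 18 to 26 over the alternatives. Smo, near 0, ranged from -0.088 to 0.13 without 1 library.

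A replicate block called 1134 genes in all and 8 Frizzled genes, so it changed no call among the members. Replicate 1 of the groups did not deviate together (r = -0.0435 across 13931 tested genes). With 2 libraries a group, this cannot tell whether the replicate numbers pair cultures. Depth limits Fzd9 most: its Dox values rest on about 150 and 143 fragments.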
